A study of Mus musculus with 6 samples.

Results

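Periostin, tenascin-C, SPARC, SPARC-like 1, thrombospondins 1 and 2, osteopontin, fibronectin and the CCN proteins known earlier as Ctgf and Cyr61 are secreted glycoproteins of the extracellular matrix, and their transcripts (Postn, Tnc, Sparc, Sparcl1, Thbs1, Thbs2, Spp1, Fn1, Ccn2 for Ctgf and Ccn1 for Cyr61) were compared here between fetal and adult mammary cells. A non-control array probe was counted as one of theirs when its RefSeq accession belonged to 1 of the 10 genes. This gave 12 probes for the 10 genes, with a pair of probes each for Tnc and Sparc and a single probe for every other gene, among 55681 probes on the array, of which 27235 could be assigned to 20660 genes; any probe of the 10 genes that carries another kind of accession was not counted. The rule uses the identity of the genes and no value of these arrays, but the genes were chosen with earlier results of these data known.

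Each population was represented by RNA of 3 biological replicates, each hybridized to its own one-color Agilent array (SurePrint G3 Mouse GE). The fetal cells came from C57Bl6/J mice at embryonic day 18.5 (E18.5) and were gated as EpCAM++CD49f+ after exclusion of CD31+, CD45+ and Ter119+ cells, and the adult basal cells came from female C57Bl6/J mice 8 to 12 wk old and were gated as EpCAM+CD49f+ with BP-1+ cells excluded as well. Glands were enzymatically digested before sorting, for a short time for the fetal cells and overnight for the adult cells, so age, gate and length of digestion differ together between the populations and cannot be told apart. The arrays lay on 2 slides, with fetal replicate 1 and adult basal replicates 1 and 3 on one and the remaining arrays on the other. Over all probes, the log2 signals of any pair of fetal arrays correlated with r of 0.991 to 0.992, those of adult basal arrays with 0.980 to 0.988, and those of arrays of different populations with 0.939 to 0.952, so that no array stood apart from its own population. Values are log2 of the quantile-normalized signal, differences are fetal minus adult basal on that log2 scale, and levels of different probes were used only to name the brightest probe of a gene or list (by mean log2 signal over the 6 arrays) and in summed signals, which weight bright probes most.

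Matricellular proteins are secreted into the matrix without being main structural parts of it, and they alter how cells attach, spread and respond to growth factors, largely through integrins and other surface receptors. Fibronectin differs in that it forms fibrils, onto which several of the others bind. In the mammary gland, basal cells lie against the basement membrane, and both these cells and the surrounding stroma are known sources of such proteins, which remodel during branching, pregnancy and involution. In a bulk sample of sorted cells, a smaller share of cells making a transcript and less of it per cell cannot be told apart.

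Of the 12 probes, 11 passed the low-signal filter (all but that of Spp1), and these represent 9 genes. A call required a 2-fold difference or more and passing a threshold of 0.05 in limma's test after Holm adjustment over all tested probes. Across all 20448 tested probes, 5.92% were called higher in the fetal cells and 5.18% higher in the adult basal cells. Of the 11 tested glycoprotein probes, 1 was called higher in fetal cells (Ccn1), 5 were called higher in adult basal cells (Postn, Ccn2, 1 of the Tnc probes and both Sparc probes), and 5 were not called. Counted by gene, each through its brightest tested probe, 1 of the 9 tested genes was called on the fetal side (6.03% of all 15734 tested genes) and 4 on the adult basal side (5.21%). With Benjamini-Hochberg adjustment in place of Holm these counts became 2, with Sparcl1 added (15.8% of all tested genes), and 4 (13.9%). The 3 fetal values all lay above the 3 adult values for 2 of the 11 probes (34.1% of all tested probes) and all below them for 7 (35.0% of all tested probes). The median difference was -0.94 over the 11 probes and -0.03 over all tested probes, and the median size of the difference, regardless of sign, was 2.06 against 0.55.

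**Figure D1:**
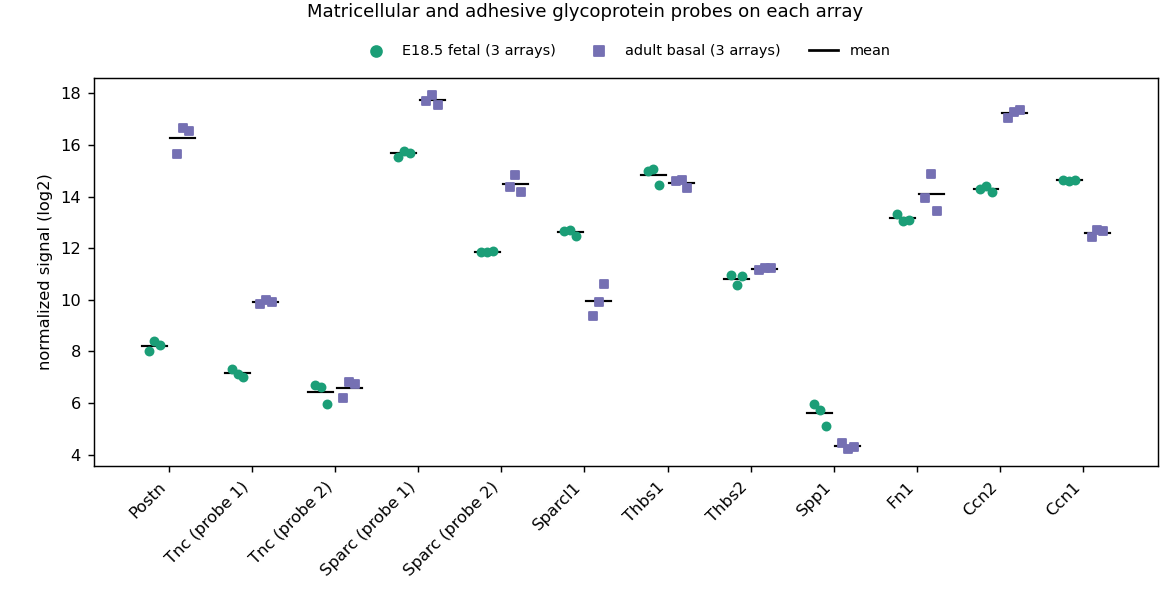
Normalized log2 signal (vertical axis) of each of the 12 glycoprotein probes (horizontal axis) on the 3 E18.5 fetal arrays (circles) and the 3 adult basal arrays (squares), with black lines at the group means. Postn lies near 8 on the fetal arrays and near 16 on the adult basal arrays, Ccn2 and Ccn1 lie apart in opposite directions, and the arrays of the populations interleave for Thbs1 and the weaker Tnc probe.

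Sequence upstream of the start was at hand for 6 of the 10 genes, from the RefSeq promoter table (GRCm38.p6), and not for Ccn2, Fn1, Sparcl1 or Thbs1. The windows of 3 called genes are shown, Postn and Tnc (higher in adult basal cells) and Ccn1 (higher in fetal cells), to set side by side the proximal promoters of genes that changed in opposite directions. Each is the 250 bases before an annotated start, 5′ to 3′ on the strand of the gene: chr3:54360857-54361106 on the plus strand for Postn, chr4:64046937-64047186 on the minus strand for Tnc, and chr3:145649986-145650235 on the minus strand for Ccn1. Capitals mark matches to the core promoter motif TATAAA (searched on the gene strand only) and to GGAATG (the TEAD motif, either strand, so that it also reads as its reverse complement).
Postn: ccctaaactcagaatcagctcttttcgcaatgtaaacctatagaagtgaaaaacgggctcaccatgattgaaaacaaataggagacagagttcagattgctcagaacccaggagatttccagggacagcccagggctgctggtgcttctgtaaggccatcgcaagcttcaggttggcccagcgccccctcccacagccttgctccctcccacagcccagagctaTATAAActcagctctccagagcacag
Tnc: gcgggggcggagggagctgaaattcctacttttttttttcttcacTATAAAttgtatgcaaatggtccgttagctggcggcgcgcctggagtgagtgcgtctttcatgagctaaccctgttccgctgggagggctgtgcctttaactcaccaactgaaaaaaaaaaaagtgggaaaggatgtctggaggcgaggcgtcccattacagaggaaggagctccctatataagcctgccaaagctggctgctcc
Ccn1: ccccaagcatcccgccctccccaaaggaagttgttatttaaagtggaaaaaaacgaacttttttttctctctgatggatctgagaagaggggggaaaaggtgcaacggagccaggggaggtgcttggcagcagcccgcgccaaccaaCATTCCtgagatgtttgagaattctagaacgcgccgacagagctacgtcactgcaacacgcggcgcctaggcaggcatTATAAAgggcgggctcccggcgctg

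The TATAAA match lay 26 to 21 bases before the start of Postn, 25 to 20 before that of Ccn1, and 205 to 200 before that of Tnc, and Spp1 held the same letters 211 to 206 before 1 of its starts. Only these exact letters were searched. The printed Tnc window also holds the variant TATATAAG close before its start, which was therefore left unmarked and not counted. Counted from the other annotated start of Tnc, a match lay 126 to 121 bases before it. Ccn1 was the only gene among the 6 with the TEAD motif in this window, 103 to 98 bases before its start, and Ccn2 had no window to search. Of 32851 RefSeq windows of the same length, 7.59% held TATAAA and 12.6% held the TEAD motif. None of the windows of the 6 genes held TGANTCA, the motif of the AP-1 factors Fos and Jun, which 6.75% of all windows held, or a CArG box, the serum response factor motif, which 1.47% held. A match is a description of these letters and not evidence of binding, and the windows of Sparc and Thbs2 and of the other annotated start of Postn held none of these motifs.

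Postn encodes periostin, a secreted fasciclin-domain protein that binds collagen, fibronectin and alpha-v integrins and is known as a TGF-beta-induced product of fibroblasts. Its log2 signal was 8.01, 8.39 and 8.25 on the fetal arrays against 15.66, 16.64 and 16.54 on the adult basal arrays. All 3 adult values lay far above all 3 fetal values, and adult basal replicate 1 was the lowest of the adult arrays. The group means were 8.22 ± 0.19 and 16.28 ± 0.54 (SD, n = 3 each), a difference of -8.06 (SE 0.26, 95% interval -8.68 to -7.45, adjusted p = 1.4e-04, limma with Holm), or a 267-fold higher level in adult basal cells. Within the slides the difference was -8.09 and -8.32, and it kept its call under all 17 other settings tried, between -8.37 and -7.78. By p-value it was the probe of rank 224 of the 20448.

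Tnc encodes tenascin-C, a glycoprotein of embryonic mesenchyme, wounds and tumor stroma that can weaken the attachment of cells to fibronectin. The brighter of its probes read 7.33, 7.12 and 7.02 on the fetal arrays against 9.83, 9.99 and 9.92 on the adult basal arrays. These groups did not overlap, and the difference was -2.76 (SE 0.12, adjusted p = 9.4e-04), a 6.76-fold higher level in adult basal cells. The weaker probe read 6.72, 6.61 and 5.97 in fetal cells and 6.20, 6.82 and 6.75 in adult basal cells. Those values interleaved, with a difference of -0.16 (95% interval -0.73 to 0.42, adjusted p = 1), 0.24 on one slide and -0.53 on the other. The probes of Tnc therefore gave different readings: averaged into 1 value for the gene, the difference was -1.46 and was not called (adjusted p = 0.69), and without fetal replicate 3 the difference of the weaker probe was 0.07.

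Sparc encodes SPARC (osteonectin), a collagen- and calcium-binding protein that affects collagen assembly and loosens cell contacts with the matrix. Its brighter probe read 15.55, 15.78 and 15.70 on the fetal arrays against 17.72, 17.92 and 17.56 on the adult basal arrays. The other probe read 11.84, 11.84 and 11.88 against 14.38, 14.85 and 14.19. With both probes every adult value was above every fetal value, by differences of -2.06 (SE 0.13, adjusted p = 0.014) and -2.62 (SE 0.17, adjusted p = 0.018), 4.17-fold and 6.16-fold. The size held on both slides, at -2.10 and -2.18 for the brighter probe and -2.45 and -2.99 for the other. The call did not hold for either probe when fetal replicate 1, 2 or 3 or adult basal replicate 1 was left out (adjusted p between 0.15 and 0.19 for the brighter probe and between 0.18 and 0.31 for the other), although the difference stayed between -2.76 and -1.96. Both calls were also lost without the filter on dim probes (adjusted p = 0.1 for the brighter probe and 0.15 for the other). The same held with the replicate number as a block (0.084 and 0.09).

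Sparcl1 encodes the related hevin, another collagen-binding member of the family with anti-adhesive activity. It read 12.67, 12.70 and 12.49 on the fetal arrays against 9.38, 9.92 and 10.60 on the adult basal arrays. All fetal values were higher, and the adult arrays spread over more than 1 log2 unit, with adult basal replicate 3 the highest. The difference of 2.66 (SE 0.28, 95% interval 1.99 to 3.32), 6.30-fold, missed the Holm threshold (adjusted p = 0.44) and passed with Benjamini-Hochberg adjustment (adjusted p = 1.3e-04). It was 2.68 on each slide, and without adult basal replicate 3 it was 2.97 and passed Holm (adjusted p = 0.048).

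Thbs1 encodes thrombospondin-1, which activates latent TGF-beta and binds the receptors Cd47 and Cd36. Its values of 15.01, 15.06 and 14.45 in fetal cells overlapped those of 14.61, 14.65 and 14.35 in adult basal cells. The difference was 0.31 with a 95% interval of -0.13 to 0.74 (adjusted p = 1). Thbs2, for the related thrombospondin-2, an inhibitor of angiogenesis, read 10.96, 10.58 and 10.93 in fetal cells and 11.14, 11.25 and 11.23 in adult basal cells. These did not overlap, but the difference of -0.38 (95% interval -0.69 to -0.08) was less than 2-fold and its adjusted p was 1 with Holm and 0.035 with Benjamini-Hochberg. Both intervals lie within a 2-fold difference in either direction.

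Fn1 encodes fibronectin, the fibril-forming ligand of integrins such as that of Itga5. Its log2 signal was 13.32, 13.05 and 13.09 on the fetal arrays against 13.95, 14.87 and 13.45 on the adult basal arrays. The adult values were all above the fetal ones but spread widely, with adult basal replicate 2 the highest and replicate 3 close to the fetal arrays. The difference was -0.94 (SE 0.33, 95% interval -1.71 to -0.16) and was not called (adjusted p = 1 with Holm and 0.04 with Benjamini-Hochberg, at 1.92-fold). It was -0.38 on the slide with adult basal replicates 1 and 3 and -1.80 on the slide with adult basal replicate 2. Over both slides it was -0.55 without adult basal replicate 2 and -1.26 without adult basal replicate 3, and it was called in neither case.

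Spp1 encodes osteopontin, a phosphoprotein ligand of integrins and Cd44. Its probe read 5.95, 5.74 and 5.10 on the fetal arrays against 4.47, 4.23 and 4.31 on the adult basal arrays, with means of 5.60 ± 0.44 and 4.34 ± 0.12 (SD, n = 3 each). All fetal values were higher, by 1.26 on average, but the means fell below the filter's boundary of 5.95 in both populations, so the probe was not tested. It was tested without the filter on dim probes and with a filter on probes well above background, and was called in neither setting. It was well above background on 3 fetal and 2 adult basal arrays, whereas the other 11 probes were so on all 6 arrays.

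Ccn2 and Ccn1 encode the CCN proteins CTGF and CYR61, which bind integrins and heparan sulfate and are known targets of the YAP and TEAD factors, and Ccn1 was first described as an immediate early gene. Ccn2 read 14.31, 14.42 and 14.18 on the fetal arrays against 17.03, 17.29 and 17.36 on the adult basal arrays. Ccn1 read 14.63, 14.62 and 14.65 on the fetal arrays against 12.44, 12.70 and 12.65 on the adult basal arrays. Neither gene's groups overlapped, and the differences ran in opposite directions, -2.92 for Ccn2 (SE 0.13, adjusted p = 0.0011, 7.58-fold higher in adult basal cells) and 2.04 for Ccn1 (SE 0.11, adjusted p = 0.0039, 4.11-fold higher in fetal cells). Both sizes held on each slide, at -2.89 and -2.99 for Ccn2 and 2.09 and 1.94 for Ccn1. Ccn2 kept its call under all 17 other settings, and Ccn1 lost it when fetal replicate 1, 2 or 3 was left out (adjusted p = 0.089, 0.081 and 0.072), with differences of 2.03 to 2.05. Ccn1 also lost its call with the replicate number as a block (adjusted p = 0.073).

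**Figure D2:**
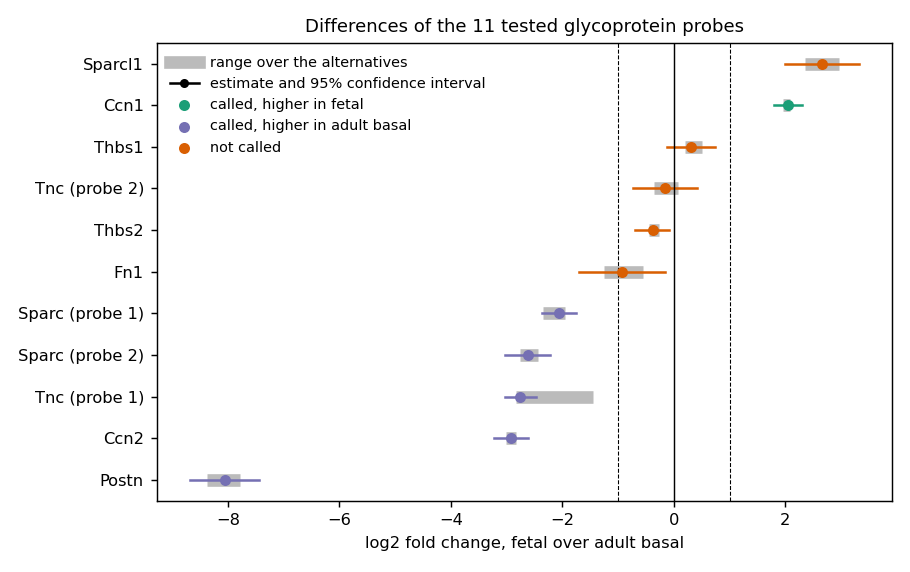
Difference of fetal minus adult basal log2 signal (horizontal axis) for the 11 tested glycoprotein probes, as the estimate with its 95% confidence interval and, in gray, the range over the other settings, with dashed lines at a 2-fold difference. Postn stands at -8.06, the Sparc, Ccn2 and brighter Tnc probes lie between -2.92 and -2.06, and Ccn1 and Sparcl1 lie on the fetal side at 2.04 and 2.66.

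**Figure D3:**
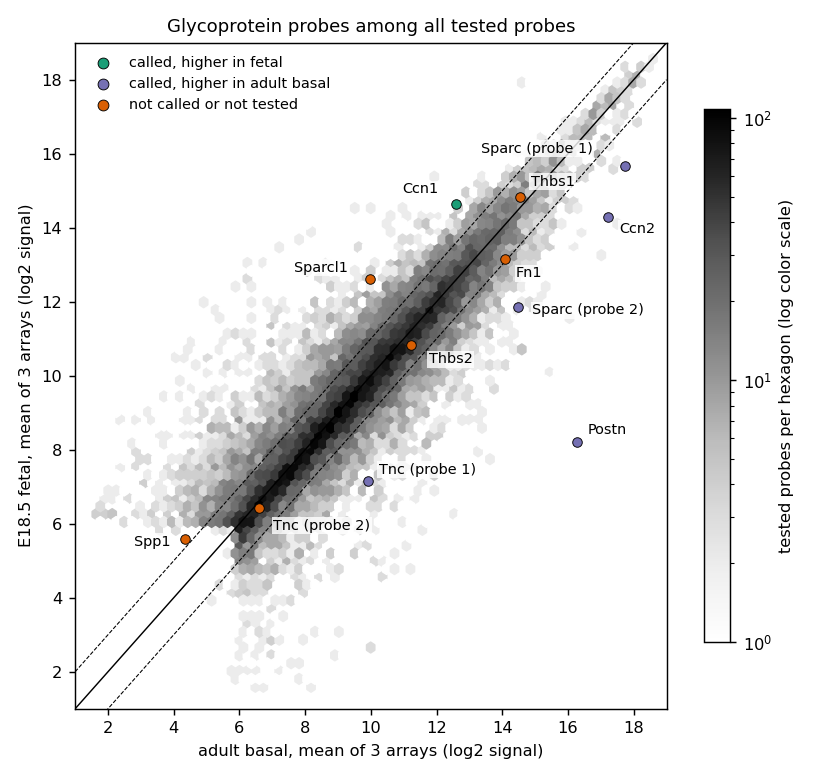
Mean log2 signal of each tested probe in adult basal (horizontal axis) and fetal cells (vertical axis), shaded by the number of probes per hexagon on a log color scale, with the 12 glycoprotein probes as colored points, a solid line at equality and dashed lines at a 2-fold difference. Postn lies farthest from the diagonal of the 12, and Fn1, Thbs1, Thbs2 and the weaker Tnc probe lie inside the dashed lines.

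The spread of the 11 tested probes was like that of the array as a whole, with a median SD of 0.14 over the fetal arrays and 0.18 over the adult basal arrays, against 0.12 and 0.18 over all tested probes. The adult SD was the larger for 63.6% of the 11 probes and for 68.8% of all. Of the 11, 7 differed by 2-fold or more regardless of the test (63.6%), against 30.6% of all tested probes.

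Other genes of the same protein families were counted by their brightest tested probe. The shares of all tested genes to set beside this and the following lists are 6.03% on the fetal and 5.21% on the adult basal side. With Benjamini-Hochberg adjustment those shares are 15.8% and 13.9%. Of 22 such genes, 15 were tested, 2 were higher in fetal cells (Smoc2 and Smoc1), 3 in adult basal cells (Ccn5, Spock2 and Ccn4) and 10 were not called, with a median of -0.33; with Benjamini-Hochberg adjustment 2 and 5 were called, with Tgfbi (-1.45) and Thbs3 (-1.19), named after their values were seen, added on the adult side. Smoc2, a SPARC-related modular protein of the matrix, read 11.82, 11.80 and 11.94 in fetal cells against 8.23, 8.44 and 8.39 in adult basal cells (difference 3.50, SE 0.11, adjusted p = 8.7e-05). Smoc1, the closest relative of Smoc2, differed by 2.01 (adjusted p = 0.022) and is named after its values were seen. The SPARC family thus held called genes in both directions: Sparc and Spock2, a proteoglycan of the family, with a difference of -3.20 (adjusted p = 0.0045), on the adult side, and the Smoc genes on the fetal side. Among the CCN genes, Ccn5 read 3.97, 4.14 and 4.48 in fetal cells against 9.61, 8.51 and 9.34 in adult basal cells (difference -4.96, adjusted p = 0.0076), and Ccn4, a Wnt-induced member, differed by -2.52 (adjusted p = 0.025) with its brighter probe and -2.06 (adjusted p = 0.033) with the other. When 1 array was left out, between 1 and 4 genes of the list were called. Smoc2 was called in every setting, whereas Spock2 was not called without fetal replicate 1 or adult basal replicate 3 (adjusted p up to 0.088), Ccn5 without any 1 fetal array or adult basal replicate 3 (up to 0.13), Smoc1 without any 1 fetal array or adult basal replicate 1 or 3 (up to 0.33), and Ccn4 with the slide as a block (0.14) or without any 1 of the 6 arrays (up to 0.41). The calls of Ccn5, Smoc1 and Ccn4 were also lost without the filter on dim probes (adjusted p = 0.082, 0.16 and 0.2). The fetal mean of Ccn5 (4.19) and the adult basal mean of Smoc1 (5.65) lay below the filter's boundary of 5.95. Each passed the filter through its brighter population only. Over the other settings the difference of Ccn5 ranged from -5.29 to -2.93. Tnn, Thbs4, Comp, Spock3, Ccn3, Ccn6 and Dmp1 fell below the filter, and Fstl1, the brightest of the list, differed by 0.29 (adjusted p = 1).

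Receptors came next. Of 18 receptor genes, 17 were tested, 4 were higher in adult basal cells, none was higher in fetal cells and 13 were not called (median -0.95); with Benjamini-Hochberg adjustment these counts became 7 and 1, the latter being Itgb8 (1.01), named after its values were seen. Lrp1, an endocytic receptor that clears thrombospondins and other matrix ligands, read 9.31, 9.12 and 9.34 in fetal cells and 13.26, 13.22 and 13.49 in adult basal cells (difference -4.07, SE 0.12, adjusted p = 7.0e-05). Cd47, a thrombospondin receptor, differed by -2.55 (adjusted p = 0.0013) and its other probe by -2.45. The integrin subunits Itgav and Itga5 differed by -1.87 (adjusted p = 0.013) and -1.82 (adjusted p = 0.035). Lrp1 and Cd47 kept their calls under every other setting, while Itgav lost its call without any 1 fetal array or adult basal replicate 1 or 3 (adjusted p up to 0.22) and Itga5 with the slide as a block (0.14) and without any 1 of the 6 arrays (up to 0.42), and 2 to 4 receptor genes were called when 1 array was left out. Without the filter on dim probes Itgav (adjusted p = 0.093) and Itga5 (0.23) were not called either. Itgb5, the brightest receptor, differed by -0.34 (adjusted p = 1).

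Enzymes and partners of matrix assembly and cleavage were counted next. Of 16 such genes, 14 were tested and 12 were not called (median -0.33). With Holm, 1 was higher in fetal cells (Fbln2) and 1 in adult basal cells (Mmp3), near the 6.03% and 5.21% of all tested genes. With Benjamini-Hochberg adjustment these counts became 3, with Fbln1 (1.03) and Loxl1 (1.01) added, and 4, with Lox (-2.57, well above background on 1 of the 3 fetal arrays), Loxl2 (-1.22) and Tgm2 added, the additions other than Tgm2 being named after their values were seen. Other probes differed by 0.01 and -1.12 for Loxl2, 0.20 for Loxl1 and 0.84 for Fbln1. Mmp3, the matrix protease stromelysin-1, which cleaves fibronectin and other matrix proteins, had no fetal array on which it rose well above background and read 9.85, 9.86 and 10.37 on the adult basal arrays, so with these normalized values it was at least 76.2-fold higher in adult basal cells (adjusted p = 0.0048). Its measured difference of -7.47 ranged from -7.95 to -3.92 over the other settings and was smallest in size with a normexp background. Fbln2, for fibulin-2, a fibronectin- and basement membrane-binding protein, read 13.97, 14.06 and 14.01 against 12.45, 12.15 and 12.10 (difference 1.78, adjusted p = 0.026). The call of Mmp3 was lost without the filter on dim probes (adjusted p = 0.058) and without fetal replicate 3 or adult basal replicate 1 (up to 0.073). That of Fbln2 was lost with the slide as a block (adjusted p = 0.16), without the filter on dim probes (0.18) and without any 1 fetal array or adult basal replicate 2 or 3 (up to 0.4). When 1 array was left out, 0 or 1 gene of the list was called. The fetal means of Mmp3 (2.56) and Lox (3.85) lay below the filter's boundary. Tgm2, the crosslinking transglutaminase and the brightest of the list, differed by -1.03 (adjusted p = 0.18).

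Ccn1 and Ccn2 are both known YAP targets, so the pathway was described beside them. All 19 listed genes of the YAP and TEAD pathway were tested: 5 were higher in adult basal cells, 1 was higher in fetal cells and 13 were not called, with a median of -1.16, and with Benjamini-Hochberg adjustment 10 and 2 were called, the added fetal gene being Tead4 (2.12), named after its values were seen. Crim1, a membrane protein that binds growth factors, read 6.38, 6.19 and 6.23 in fetal cells and 12.41, 12.84 and 12.83 in adult basal cells (difference -6.43, SE 0.14, adjusted p = 9.8e-06). Axl, a receptor tyrosine kinase, differed by -3.71 (adjusted p = 3.3e-04). The TEAD factors themselves differed in direction, with Tead2 at 13.66, 13.75 and 13.83 against 11.23, 11.06 and 11.21 (difference 2.58, adjusted p = 6.2e-04) and Tead1 at 10.51, 10.41 and 10.21 against 12.76, 13.47 and 13.10 (difference -2.74, adjusted p = 0.027). Crim1, Axl and Tead2 kept their calls under every other setting, with Crim1 between -6.60 and -5.53. Tead1 lost its call with the slide as a block (adjusted p = 0.098), without the filter on dim probes (0.22) and without any 1 fetal array or adult basal replicate 3 (up to 0.35). Lats2, another of the genes called on the adult side and named after its values were seen, differed by -2.13 with its brighter probe. Its other probe differed by 0.50, toward the fetal side. Averaged over its probes, the difference of Lats2 was -0.81 and was not called. Between 3 and 5 genes of the list were called when 1 array was left out. The adult basal mean of Tead4 (5.73) lay below the filter's boundary, so it passed the filter through the fetal cells only. Yap1, the brightest of the list, differed by -0.62 (adjusted p = 1).

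Periostin, fibronectin and the CCN proteins are also known to respond to TGF-beta. Of 15 listed genes of that pathway all were tested, 3 were higher in adult basal cells, none was higher in fetal cells and 12 were not called, with a median of -0.64; with Benjamini-Hochberg adjustment 5 and 1 were called. Ltbp2, a matrix protein related to those that hold latent TGF-beta, read 10.67, 10.50 and 10.20 in fetal cells and 15.07, 15.23 and 15.13 in adult basal cells (difference -4.69, SE 0.14, adjusted p = 7.2e-05). The 1 gene on the fetal side with that adjustment, named after its values were seen, was Ltbp1, which binds latent TGF-beta (12.79, 12.89 and 12.44 against 10.52, 9.69 and 9.35, difference 2.85, Holm-adjusted p = 0.36). The other genes called with Holm were Pmepa1, a feedback inhibitor, with a difference of -2.12 (adjusted p = 0.0043), and the coreceptor Tgfbr3, with -1.93 (adjusted p = 0.0062). Ltbp2 kept its call under every other setting, while those of Pmepa1 (adjusted p up to 0.083) and Tgfbr3 (up to 0.12) were lost on leaving out any 1 fetal array, and that of Tgfbr3 also without adult basal replicate 1, and 1 to 3 genes of the list were called when 1 array was left out. Smad4, the brightest of the list, differed by -0.17 (adjusted p = 1).

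**Figure D4:**
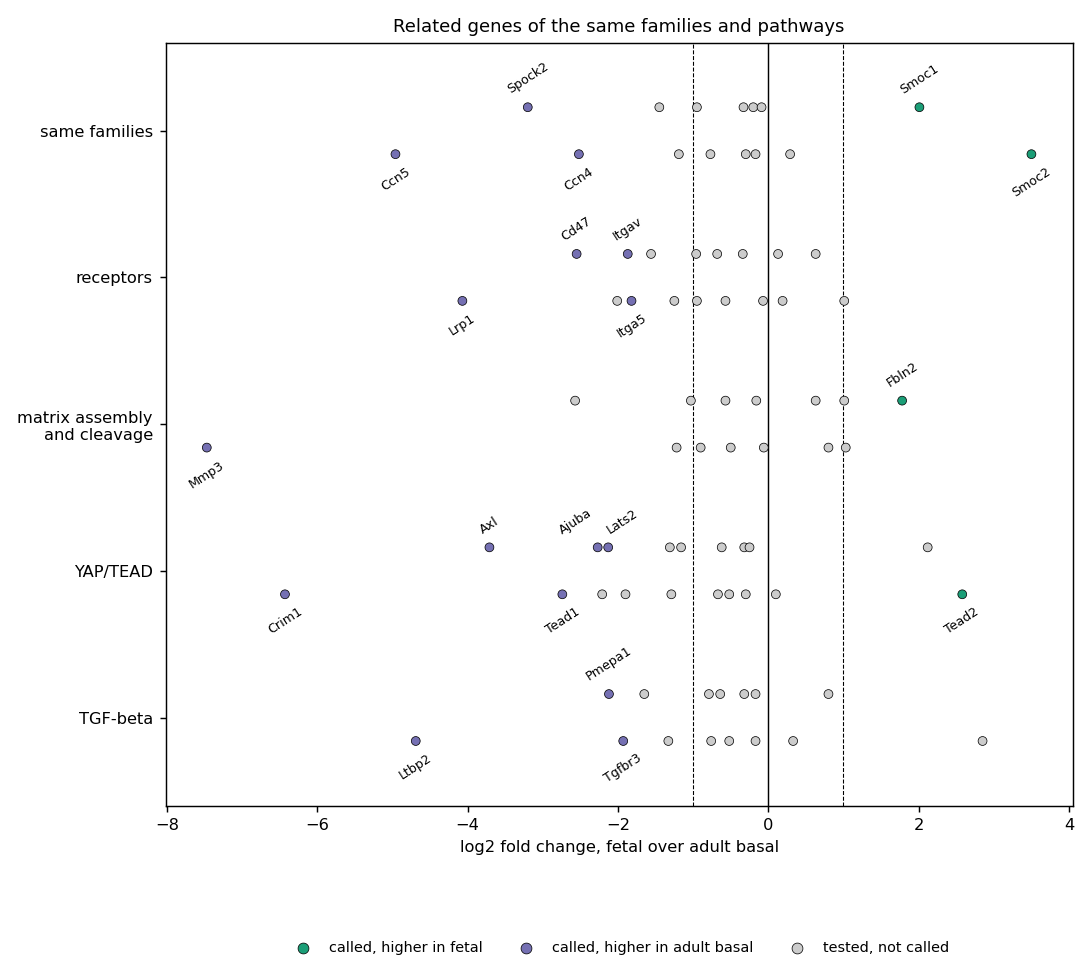
Fetal minus adult basal log2 difference (horizontal axis) of each tested gene of 5 lists (rows), by its brightest tested probe, with called genes colored and named and dashed lines at a 2-fold difference, and Mmp3 drawn at its measured difference although its fetal signal was not above background. Called genes of the receptor and TGF-beta lists lie on the adult basal side only, and the family, assembly and YAP/TEAD lists hold called genes on both sides.

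The labels of the populations were checked against cell type markers. Of 12 basal markers 9 were higher in adult basal cells and none in fetal cells, led by the contractile genes Myh11 (-8.63), Cnn1 (-6.01), Tagln (-4.87) and Mylk (-4.50), whereas Trp63 differed by -0.08 with its brightest probe (-3.06 with the other) and Krt14 by -1.20 without a call. With Benjamini-Hochberg adjustment 9 basal markers were higher in adult basal cells and 1 in fetal cells, the stem cell marker Lgr5, named after its values were seen (difference 2.64, Holm-adjusted p = 0.28). The summed signal of the 12 genes, on the linear scale, was 114670, 105890 and 95907 on the fetal arrays against 1240896, 1205276 and 1204222 on the adult basal arrays, with Acta2 the brightest. Of 12 luminal markers 6 were higher in fetal cells, led by Elf5 (7.55), Foxa1 (6.46) and Cldn3 (4.39), with Kit at 10.86 against 6.86 on average, and Krt18, the brightest, differed by 0.58 without a call. With Benjamini-Hochberg adjustment 6 were higher in fetal cells and 3 in adult basal cells, named after their values were seen: the estrogen receptor gene Esr1 (-3.58, well above background on 1 of the 3 fetal arrays) and the keratins Krt7 (-1.29) and Krt19 (-1.22). Between 3 and 5 luminal markers were called when 1 array was left out, fewest (3) without fetal replicate 2 or 3, and Foxa1 was among those lost (adjusted p up to 0.14). Foxa1 was also not called without the filter on dim probes (adjusted p = 0.082). Over the other settings Elf5 ranged from 6.10 to 7.75, Foxa1 from 5.71 to 6.87 and Myh11 from -8.86 to -7.47. The fetal means of Myh11 (5.72) and Esr1 (3.35) and the adult basal mean of Elf5 (5.10) lay below the filter's boundary. The luminal sums were 223437, 230670 and 180066 on the fetal arrays against 129328, 123315 and 122473 on the adult basal arrays. Luminal and basal transcripts were thus both measured in the fetal cells, and the contractile genes of mature basal cells differed along with Postn, Sparc and Ccn2. Whether cell makeup differed, and its part in the glycoprotein values, was not tested.

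Fibroblasts are a main source of periostin, SPARC and fibronectin in tissue, and are known to lack EpCAM, by which both gates take their cells; the depletion of BP-1+ cells, a stromal antigen, was done for the adult cells alone. Of 12 fibroblast markers 11 were tested, 2 were higher in adult basal cells, none was higher in fetal cells and 9 were not called, and with Benjamini-Hochberg adjustment 6 were higher in adult basal cells (median -1.05). Their summed signal was 6437, 6648 and 8115 on the fetal arrays against 18615, 22855 and 29789 on the adult basal arrays. Pdgfrb, a receptor of pericytes and fibroblasts, read 4.92, 4.76 and 5.23 against 9.04, 9.39 and 9.51 (difference -4.34, adjusted p = 5.6e-04), and Dcn, for the proteoglycan decorin, 9.50, 9.54 and 9.78 against 13.04, 13.39 and 13.72 (difference -3.78, adjusted p = 0.0023, and 0.052 without fetal replicate 1). Pdgfrb kept its call under every other setting, with differences between -4.48 and -2.93. Its fetal mean (4.97) lay below the filter's boundary, so it passed the filter through the adult basal cells only. Dcn was the largest part of the sum over the 6 arrays, at 37.8%. The other 4 genes higher in adult basal cells with Benjamini-Hochberg adjustment were Mfap5 (-2.26), Twist2 (-2.20), Thy1 (-1.62) and Lum (-1.05). The fetal mean of Twist2 (4.54) also lay below the filter's boundary. Collagen genes were not called, with Col1a2, the brightest by mean log2 signal and 26.3% of the sum, at -0.90 and Col1a1 at -0.01, and Pdgfra differed by -0.37, each with an adjusted p of 1. Col1a1, Pdgfra and the 4 genes were named after their values were seen. All 11 were well above background on all 6 arrays, whereas Dpt, below the filter, was so on the 3 adult basal arrays and on none of the fetal ones. The part of fibroblast transcripts in the difference of Postn and the other genes was not tested.

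Endothelial, pericyte and leukocyte markers were read in the same way; the sort excluded CD31+ and CD45+ cells, and it names no antigen of pericytes. Of 12 endothelial and pericyte markers 10 were tested and none was called with Holm, although 5 were higher in adult basal cells with Benjamini-Hochberg adjustment (median -0.86); their sums were 14049, 12600 and 14520 on the fetal and 15368, 16537 and 13488 on the adult basal arrays, with Kdr the brightest at 78.9% of the sum (difference -0.04). The 5 genes, named after their values were seen, were Cdh5 (-2.70), the pericyte gene Rgs5 (-2.22), Emcn (-1.79), Vwf (-1.56) and Cldn5 (-1.40). The fetal means of Cdh5 (4.83), Rgs5 (4.78) and Emcn (4.19) lay below the filter's boundary. Tek and Kcnj8 fell below the filter, and Pecam1, the gene of the sort antigen CD31, differed by -0.14. Of 12 leukocyte markers 11 were assigned a probe and tested, none was called with Holm and 2 were higher in adult basal cells with Benjamini-Hochberg adjustment (median -0.31). Their sums were 39712, 33529 and 31299 on the fetal and 30750, 39625 and 35783 on the adult basal arrays, with Itgam the brightest at 41.6% (difference 0.24), and Ptprc, the gene of the sort antigen CD45, differed by -0.31. The 2 genes, named after their values were seen, were Tyrobp (-2.80) and Lyz2 (-1.76). Their fetal means (5.40 and 4.85) lay below the filter's boundary, so both passed the filter through the adult basal cells only. Tyrobp read 5.03, 5.17 and 6.01 in fetal cells against 7.82, 7.16 and 9.64 in adult basal cells, and Lyz2 4.99, 4.50 and 5.05 against 6.26, 5.61 and 7.95, so both were highest in adult basal replicate 3. Adgre1, a macrophage receptor gene, differed by -0.42 with its brighter probe and was at least 10.4-fold higher in adult basal cells with the other (measured difference -4.66), which had no fetal array well above background, passed with Benjamini-Hochberg and not with Holm adjustment, and was also highest in adult basal replicate 3, at 8.71. The part of endothelial, pericyte and leukocyte transcripts in the glycoprotein values was not tested.

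Immediate early genes, which respond within minutes to growth factors and also to tissue dissociation, were described beside Ccn1. All 16 were tested: 2 were higher in fetal cells, none was higher in adult basal cells and 14 were not called, and with Benjamini-Hochberg adjustment 10 and 1 were called (median 1.30), the latter being Myc (-1.34), named after its values were seen. Their summed signal was 422930, 474910 and 470958 on the fetal arrays against 141415, 156552 and 164068 on the adult basal arrays, with Nr4a1 the largest part at 27.6% of the sum over the 6 arrays and Jun, the brightest by mean log2 signal, at 19.4%. Nr4a1, a nuclear receptor, read 17.15, 17.17 and 17.37 in fetal cells and 13.37, 14.31 and 13.53 in adult basal cells (difference 3.50, adjusted p = 0.026), and Fosb differed by 2.36 (adjusted p = 0.0025). Neither call held in every setting: that of Nr4a1 was lost without the filter on dim probes (adjusted p = 0.23) and without any 1 fetal array or adult basal replicate 1 or 3 (up to 0.36), and that of Fosb without fetal replicate 1 or 2 (up to 0.055), and between 0 and 3 genes of the list were called when 1 array was left out. With Holm and all 6 arrays the count ranged from 1 to 8 over the other settings. It was 8 with a normexp background and 7 with an offset of 16 or a trended variance. Both called genes differed in the direction of Ccn1 and opposite to Ccn2, and the part of digestion time in the levels of Ccn1 and Ccn2 was not tested.

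**Figure D5:**
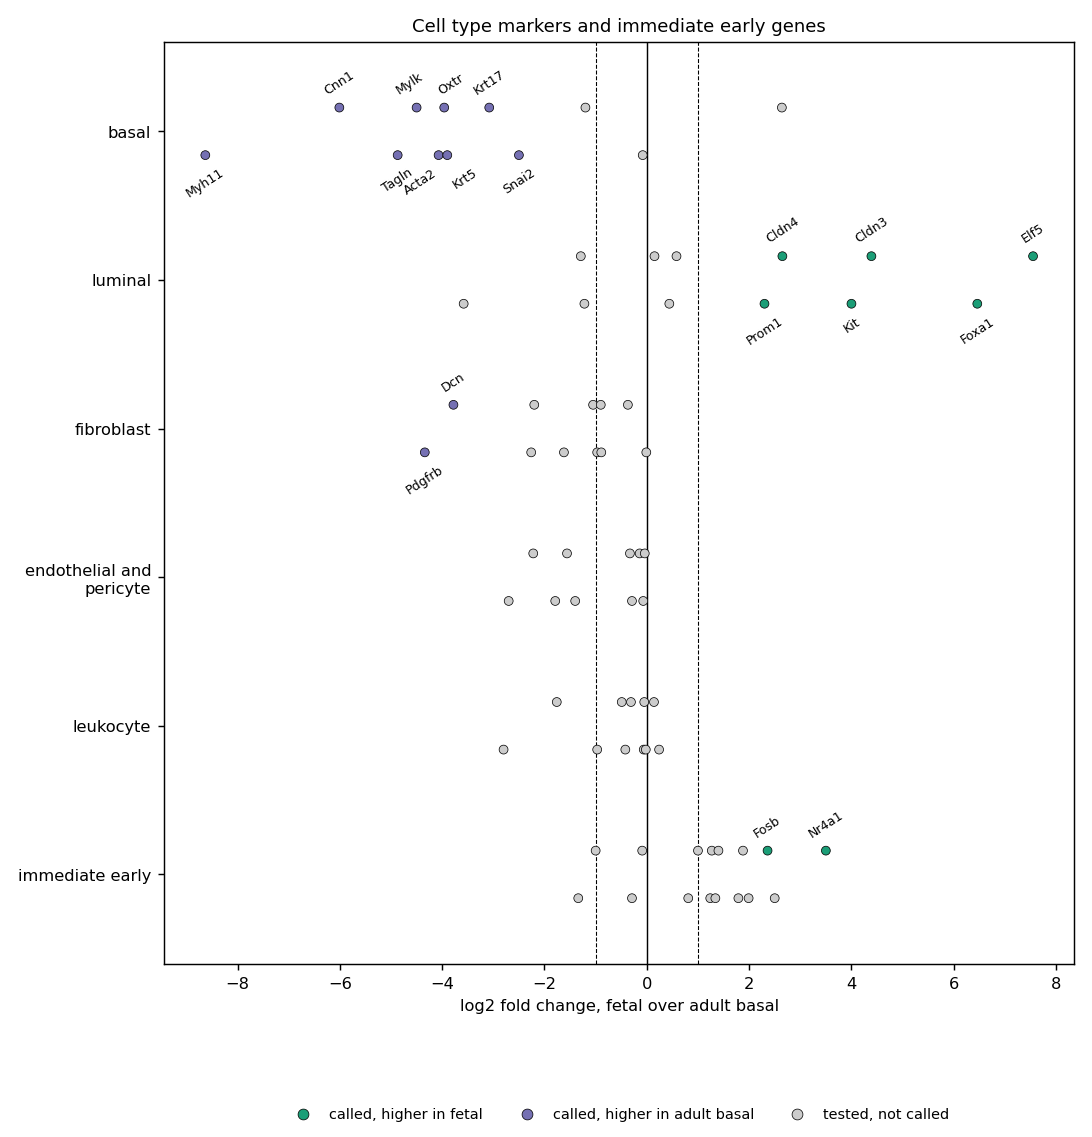
Fetal minus adult basal log2 difference (horizontal axis) of each tested gene of the 5 cell type lists and the immediate early list (rows), by its brightest tested probe, with called genes colored and named and dashed lines at a 2-fold difference. Called basal and fibroblast markers lie on the adult basal side, called luminal and immediate early genes on the fetal side, and no endothelial, pericyte or leukocyte marker was called.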

How the data were processed

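The authors deposited spot intensity from the scanner, as the background-subtracted processed signal of Agilent Feature Extraction 11.0.1.1 beside the raw spot and background intensities, and a table of log2 values that the authors quantile normalized in GeneSpring. The labels and the methods name different labelling kits. Here, control spots and spots marked as outliers (104 to 326 per array) were left out, repeated spots were reduced to 1 mean log2 processed signal for each probe, and quantile normalization was applied over the 6 arrays. Probes were assigned to genes through unversioned accessions in a RefSeq gene table (GRCm38.p6). After the low-signal filter of the methods (k-means, 3 clusters, boundary 5.95), 20448 probes were fitted with limma 3.58.1 in R 4.3.3, 3 arrays against 3, and p-values were adjusted with Holm over all of them.

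Deviations from each probe's mean in the log2 table followed those of the same array as normalized here (r of 0.998 to 0.999 over all probes). Use of that table was 1 of 18 alternatives, with 75th-percentile scaling, a normexp background, an offset of 16, other filters and probe sets, Benjamini-Hochberg adjustment, a trended variance, slide or replicate number as a block, leaving out each array, and averaging the probes of a gene. Of the probes, 76.4% to 83.3% were well above background on an array and 0 spots were saturated. Where no array of a population read a probe well above background, the fold is a bound, the mean of the bright population over, for each dim array, its lowest signal among probes well above background or the probe's own signal if higher. The number of arrays limits the precision. A probe passed the low-signal filter through either population, so a called probe can lie below the boundary in the other. Replicates are biological per the labels, and the fit was tested on simulated data. Lists were summarized by each gene's brightest tested probe, and up to 4 called genes of each list, those with the largest difference, and its brightest gene were named. The TGF-beta list is given without 1 gene, which is not reported here. The genes, lists and tests were chosen with earlier results of these data known. The CArG and TATA motifs were added after the values were seen. Tables were made in Python 3.11.15 with pandas 2.3.3, numpy 2.4.6 and matplotlib 3.10.9.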

Additional observations from a re-analysis of the deposited data

How the results depend on the processing

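With 3 arrays in each population, the number of calls depended on the setting more than the differences did. Among the 20448 tested probes 2270 were called, against 1182 without the filter on dim probes, 6133 with Benjamini-Hochberg adjustment and between 952 and 2014 when 1 array was left out. For the glycoproteins, 6 probes were called, against 4 without the filter on dim probes, 3 with the replicate number as a block and between 3 and 7 when 1 array was left out, 3 without each fetal array. In the other 11 lists, 39 genes were called, against 25 without the filter, 83 with Benjamini-Hochberg adjustment and between 20 and 36 when 1 array was left out. The cause of these changes was not tested. Deviations of same-numbered arrays of the populations correlated at -0.032, 0.0933 and 0.0488, within the range of -0.13 to 0.12 of the other pairs. With 3 arrays in each population, these values cannot show whether same-numbered samples were prepared together. With the replicate number as a block, 1302 probes and 28 list genes were called.

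Of 189 values of the glycoprotein probes under the alternatives, 168 kept their direction and side of the threshold, 18 lost the call, 2 gained it (both Sparcl1) and 1 changed sign, the weaker Tnc probe at 0.07 without fetal replicate 3 (-0.36 to 0.07 when each array was left out). Calls of Postn and Ccn2 were kept in all of theirs. With 75th-percentile scaling the brighter Sparc probe had an adjusted p of 0.068. Of 672 values of the 39 called list genes, 551 kept their call, 121 lost it and 0 changed sign. The call was lost by 14 genes without the filter, by 11 with the replicate number as a block, by 5 with the slide as a block (Ajuba, Ccn4, Fbln2, Itga5 and Tead1), by 5 with probes of no gene included and by 2 with a trended variance. Among the calls, 53.3% were higher in fetal cells, and between 51.0% and 55.4% under the alternatives.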
